A study of Saccharomyces cerevisiae with 12 samples.

Results

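The 61 genes described here encode proteins of the mitochondrial ribosome of Saccharomyces cerevisiae, the particle that translates the few RNAs of the mitochondrial genome. They were taken by name from the 6053 genes of the deposited table, as those called MRPL, MRPS, MRP or RSM followed directly by a digit. Of these, 34 encode proteins of the large subunit, 26 encode proteins of the small subunit, and RSM22 encodes a methyltransferase-like protein named with those of the small subunit. All 61 genes reached 3 RPM (the reads-per-million unit, a share of the matched reads of a library) in at least 3 libraries and were tested, as were 5278 genes in all.

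Almost every protein of this ribosome is encoded in the nucleus, made in the cytosol and imported, and it then joins ribosomal RNA made inside the mitochondrion. The cytosolic RNAs of these genes are textbook targets of Puf3, an RNA-binding protein that recognises a short element behind the stop codon and takes part in the decay, translation and localisation of RNAs for mitochondrial proteins. Many of its proteins have homologues in bacterial ribosomes (family names that begin with u or b), whereas others are found in mitochondrial ribosomes alone (family names that begin with m).

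RNA levels were measured by SAGE-tag sequencing (SAGE is serial analysis of gene expression), which reads from each polyadenylated RNA a short tag beside the site CATG. The 4 groups, with 3 libraries each, were bmh2∆ cells at 0 mM KCl, bmh2∆ cells at 50 mM KCl, bmh1∆ cells at 0 mM KCl and bmh1∆ cells at 50 mM KCl. All cells were haploid BY4741 (MATa his3Δ1 leu2Δ0 met15Δ0 ura3Δ0) with either bmh2Δ::loxP or bmh1Δ::loxP, were grown at 50 mM KCl in Translucent YNB medium with leucine, histidine, methionine and uracil, and were then kept for 60 min at 0 or 50 mM KCl. BMH1 and BMH2 encode the yeast 14-3-3 proteins, regulators that bind phosphorylated proteins. Wild type BY4741 libraries were not analysed here, so no value below is a difference from wild type. The sources give 1 strain per deletion and do not say that the libraries of a group came from separate cultures, so p values measure the spread between these libraries.

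The libraries stand apart in ways that bear on these genes. The bmh2∆ libraries and B0 and B50 of bmh1∆ are named by a letter (C, D, E or B) and the KCl concentration. The other bmh1∆ libraries have no letter, are named here by their index and come from lane 1 (GGATAT and CTATAG at 50 mM, GTCACG and TGCACT at 0 mM KCl). They are called indexed below, although the headers of the lettered libraries hold an index too. If the smallest step of the values is 1 read, depth was 6237952 reads in B50, 73863623 in GTCACG, 107579363 in B0 and 10353246 to 19334173 in the other libraries. In B0 0 and in GTCACG 1 of the 6053 genes had fewer reads than all other libraries of that naming series added up. None of the 61 genes did. Those added-up reads came to 74.9% of the reads of B0 and 60.9% of those of GTCACG. For B0 the others are the bmh2∆ libraries and B50, and for GTCACG they include the indexed libraries at 50 mM KCl. B0 and GTCACG may thus hold reads of the others and not be independent of them. The main medians over the 61 genes that rest on them are also given without them, but not every count is. BMH2 was at most 0.291 RPM in bmh2∆ and 197 to 505 RPM in bmh1∆. BMH1 was 4048 to 5391 RPM in bmh2∆ and 536 to 4170 RPM in bmh1∆, with the highest bmh1∆ value in B0. The CATG of BMH1 nearest the 3′ end lies after its stop codon, so its level is no check of the deletion. The a-cell genes STE2 (486 to 1772 RPM) and MFA1 were present in every library and the alpha-cell genes MF(ALPHA)1, MF(ALPHA)2 and STE3 stayed at or below 6.09 RPM, whereas the alpha-cell gene SAG1 reached 63.7 RPM. URA3, deleted in BY4741, was at most 0.328 RPM, and HIS3 was at 2.21 to 25.2 RPM.

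The sequences below are shown because a SAGE value depends on the tag. They are the 21 bases that start at the CATG nearest the 3′ end, searched up to 200 bases past the stop codon in the RefSeq S288C sequence of build R64. The build used by the authors is not given in the sources used here. The capitals mark CATG. MRPS35, MRP2 and MRPL28 had the largest differences on potassium starvation in bmh2∆, MRP2 and MRPS12 had the highest levels, and MRPS16 differed most between indexed and lettered libraries (chosen after its values were seen).
MRPS35: CATGgtcacgttgggcacatt
MRP2: CATGataatttttattcttct
MRPL28: CATGaactgtatcactattga
MRPS12: CATGttatcagaggtgctggt
MRPS16: CATGggccactagtaagaaca
The tag of MRPS35 (YGR165W) is at chrVII:830269-830289 on the plus strand, that of MRP2 (YPR166C) at chrXVI:876200-876220 on the minus strand and that of MRPL28 (YDR462W) at chrIV:1386641-1386661 on the plus strand. These start 116, 62 and 125 bases after the stop codon, outside the reading frame. The tag of MRPS12 (YNR036C, chrXIV:694433-694453, minus strand) starts 92 bases before the end of its reading frame, and that of MRPS16 (chrXVI:529035-529055, minus strand) starts 70 bases before it.

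The element bound by Puf3 was searched as TGTANATA on the transcribed strand within 200 bases after the stop codon, where N is any base. It was found behind 60 of the 61 genes (98.4%), that is all 34 genes of the large subunit and all 26 of the small subunit, but not behind RSM22. Of the 5482 other genes matched to the reference 13.5% held it. On the opposite strand 19.7% of the 61 genes and 13.2% of the other genes held it. Among genes for proteins of the cytosolic ribosome it was found behind 5 of 109 (4.59%). The first match started 8 to 139 bases after the stop codon, with a median of 49 bases. The matches of MRPS35, MRP2 and MRPS12, 1 of MRPL28 and both of MRPS16 are these, with the element in capitals.
MRPS35: tactTGTACATAaaat
MRP2: cactTGTAAATAaata
MRPL28: ctgcTGTAAATAactg
MRPS12: ctttTGTAAATAgcaa
MRPS16: atgtTGTATATAtgtt
MRPS16: gactTGTAAATAatac
They start 70, 50, 32, 74, 86 and 127 bases after the stop codon, and MRPL28 holds another at 88 bases. Their positions are chrVII:830219-830234, chrXVI:876221-876236, chrIV:1386544-1386559, chrXIV:694276-694291, chrXVI:528888-528903 and chrXVI:528847-528862. The other classes of nuclear genes for mitochondrial translation also held the element often, namely 13 of 13 mitochondrial tRNA synthetase genes and 13 of 14 genes for mitochondrial ribosomal proteins with other names. A match is a stretch of letters, and binding of Puf3 was not measured.

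In 15 of the 61 genes (24.6%), against 1.39% of the other genes, a match shared bases with a CATG site, so that the SAGE tag can begin on the element. MRPL49, MRPL23 and RSM19 are examples, with the element in capitals.
MRPL49: caTGTAAATAacaataaaatt
MRPL23: caTGTATATAtttatctgtta
RSM19: caTGTAAATAagatcaagcca
These tags lie at chrX:247014-247034 (MRPL49, YJL096W, plus strand), chrXV:612544-612564 (MRPL23, YOR150W, plus strand) and chrXIV:694996-695016 (RSM19, YNR037C, minus strand), 39, 54 and 36 bases after the stop codon. The other genes of this kind are MRP17, MRP49, MRPL1, MRPL7, MRPL9, MRPL11, MRPL16, MRPL17, MRPL25, MRPS8, RSM23 and RSM27. In MRP49, MRPL9 and MRPL16 a further CATG lies nearer the 3′ end.

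RNA levels of the 61 genes were moderate. The mean over the 12 libraries was 6.16 to 383 RPM with a median of 76.4 RPM, against a median of 46.6 RPM over all genes tested. SAGE reads a single tag per RNA, so these values were not divided by gene length. The highest means were those of MRP2 (383 RPM), a small subunit protein of the uS14 family, and MRPS12 (328 RPM), the uS12 protein of the decoding centre. They were followed by MRPL39 (252 RPM, bL33), RSM19 (242 RPM, uS19) and MRPL51 (216 RPM, mL43). The lowest means were those of MRPL28 (6.16 RPM, mL40), MRPL15 (19.2 RPM, mL57), RSM24 (20.97 RPM, mS35), MRPL35 (23.1 RPM, mL38) and MRPL40 (24.9 RPM, uL24). This order is not fixed, because the highest of the 12 libraries exceeded the lowest by a median of 4.83-fold per gene and by over 10-fold in 17 genes. Within the 6 bmh2∆ libraries the median was 1.90-fold and no gene exceeded 5.20-fold.

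MRPS12 varied little between libraries. It had 308, 296 and 322 RPM in bmh2∆ libraries C, D and E at 0 mM KCl, against 376, 349.8 and 344 RPM in the same letters at 50 mM KCl. In bmh1∆ it had 283, 311 and 337 RPM at 0 mM KCl (GTCACG and TGCACT and in B0), against 334, 349 and 323 RPM at 50 mM KCl (GGATAT and CTATAG and in B50). All 12 values lay within 1.33-fold, and although the bmh2∆ values did not overlap, the log2 difference was small (-0.21, standard error 0.22, limma, adjusted p = 0.72).

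Summed over the 61 genes, the RNA level took 0.381% to 0.795% of each library. In bmh2∆ the sum was 4605, 5301 and 4386 RPM in C, D and E at 0 mM KCl, against 5177, 5354 and 6333 RPM in C, D and E at 50 mM KCl. These ranges overlapped, with group means of 4764 ± 478 RPM at 0 mM and 5621 ± 622 RPM at 50 mM KCl (SD, n = 3). In bmh1∆ it was 7428, 7888 and 5147 RPM in GTCACG and TGCACT and in B0 at 0 mM KCl, against 7313, 7951 and 3810 RPM in GGATAT and CTATAG and in B50 at 50 mM KCl. The 4 indexed libraries were the highest of the 12 at both KCl concentrations and B50 was the lowest. The 34 large subunit genes and the 26 small subunit genes gave the same picture, with 1792 and 2008 RPM in B50 as the lowest sums.

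**Figure D1:**
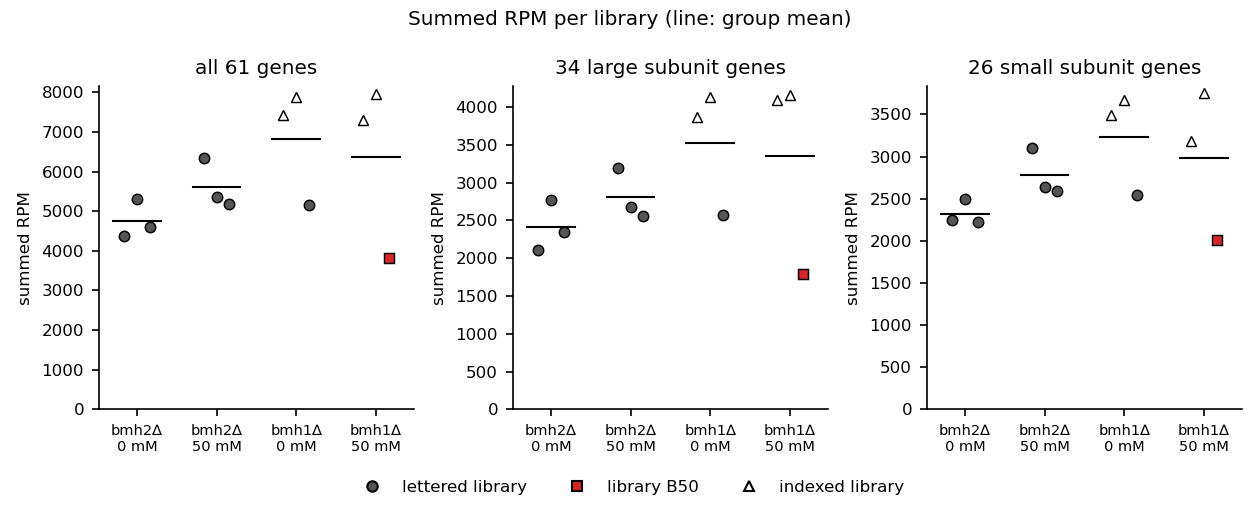
Summed RPM of all 61 genes, of the 34 large subunit genes and of the 26 small subunit genes (y axes, from 0) in each of the 12 libraries, by strain and KCl concentration (x axis). Lines are group means, and the 4 indexed libraries (open triangles, 7313 to 7951 RPM over all 61 genes) lie above all lettered libraries, with B50 (square) lowest at 3810 RPM.

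The first comparison asked how 60 min without potassium changed these RNAs in bmh2∆. None of the 61 genes passed an adjusted p of 0.05 in limma, where 153 of all genes tested rose (2.9%) and 139 fell (2.63%). At an unadjusted p under 0.05, 1 gene was higher and 5 were lower, that is 1.64% and 8.20% of the 61, against 10% and 9.23% of all genes tested. The median log2 difference of the 61 genes was -0.16 and 39 of 61 values were below 0, whereas over all genes tested the median was 0.05 and 46.7% were below 0. The libraries shared this shift in part. Set against the mean of the 50 mM libraries, the median over the 61 genes was -0.09 in C0 (35 of 61 below 0), 0.04 in D0 (28 of 61) and -0.37 in E0 (48 of 61), while over all genes tested it was 0.10, -0.04 and 0.04 in C0, D0 and E0. The 50 mM libraries and C0 come from lane 5 and D0 and E0 from lane 6, so C0 gives the value within a lane. Without E0 the median was -0.06. In such bulk samples fewer cells that express a gene and less RNA per cell cannot be told apart.

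In 12 genes all libraries at 0 mM KCl lay below all libraries at 50 mM KCl, and in 3 genes all lay above. These are 19.7% and 4.92% of the 61 genes, and over all genes tested 20.5% and 20.2% were separated in these directions. MRPS35, an mS45 protein of the small subunit, had 51.1, 95.6 and 34.003 RPM in C0, D0 and E0, against 115, 157 and 177 RPM in C50, D50 and E50. This was the largest difference, with a log2 value of -1.41 (standard error 0.57, limma, adjusted p = 0.20). MRP2 had 206, 236 and 408 RPM in C0, D0 and E0, against 531, 492 and 628 RPM in C50, D50 and E50 (log2 difference -1.01, standard error 0.36, adjusted p = 0.14). Its lowest value at 50 mM KCl was 492 RPM and its highest at 0 mM KCl was 408 RPM, and the 3 values at 0 mM KCl spread more than those at 50 mM KCl. MRPL28, the gene of lowest level, had 1.45, 4.26 and 2.40 RPM in C0, D0 and E0, against 4.80, 6.46 and 6.76 RPM in C50, D50 and E50 (log2 difference -0.98, standard error 0.55, adjusted p = 0.39). The libraries of all 3 genes were separated by KCl, but the differences did not pass.

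MRPL27 and MRPL31 of the large subunit are added here after their values were seen. MRPL27, an mL41 protein with the smallest adjusted p of the 61 genes, had 88.8, 115 and 85.0 RPM in C0, D0 and E0, against 179, 183 and 188 RPM in C50, D50 and E50. The groups did not overlap, and the mean at 0 mM KCl was 52.6% of that at 50 mM KCl (log2 difference -0.93, standard error 0.26, adjusted p = 0.062). MRPL31, an mL60 protein, had 65.7, 107 and 72.3 RPM in C0, D0 and E0, against 145, 145 and 183 RPM in C50, D50 and E50 (log2 difference -0.97, standard error 0.38, adjusted p = 0.19). Their calls depended on how the spread was estimated. The median SD of the log2 values of the 61 genes was 0.31 and 0.21 in bmh2∆ at 0 and 50 mM KCl, and 0.55 and 0.99 in bmh1∆ at 0 and 50 mM KCl. In a fit of the bmh2∆ libraries alone, MRPS35, MRP2, MRPL28, MRPL31 and MRPL27 fell (adjusted p = 0.021, 0.029, 0.049, 0.019 and 0.010), while 12.1% of all genes tested rose and 12.5% fell. These are 8.20% of the 61 genes, below the share of all genes that fell in that fit, and none of the 61 rose. With the naming series as a term MRPS35, MRP2, MRPL31 and MRPL27 fell, beside 10.6% of all genes that rose and 9.49% that fell. With the culture letter as a block 1 of the 61 genes rose and 2 fell, beside 9.76% and 8.17% of all genes.

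The 3 genes whose libraries lay higher at 0 mM KCl were MRPL4, MRPL38 and MRP4. MRPL4, a uL29 protein, had 84.3, 86.4 and 77.5 RPM in C0, D0 and E0, against 68.4, 64.1 and 60.8 RPM in C50, D50 and E50 (log2 difference 0.36, standard error 0.31, adjusted p = 0.63). MRP4, a uS2 protein, had 117, 99.2 and 121 RPM in C0, D0 and E0, against 92.0, 88.1 and 76.6 RPM in C50, D50 and E50 (log2 difference 0.39, adjusted p = 0.83). MRPL38, a uL14 protein, had means of 117 ± 11.9 RPM at 0 mM and 96.9 ± 6.82 RPM at 50 mM KCl (SD, n = 3; log2 difference 0.27, adjusted p = 0.86). MRPL13, an mL50 protein, had the highest log2 difference at 0.84 (adjusted p = 0.23), but its libraries overlapped, with 78.9, 38.6 and 102 RPM in C0, D0 and E0 against 42.2, 27.9 and 44.5 RPM in C50, D50 and E50. By role, the median log2 difference was -0.25 in the large subunit (24 of 34 below 0) and -0.05 in the small subunit (15 of 26 below 0). Among large subunit proteins it was -0.20 for the 20 with a bacterial homologue and -0.31 for the 14 found in mitochondrial ribosomes alone, and in the small subunit these values were -0.07 (15 genes) and -0.02 (10 genes), with MRP51 left out. These medians were not tested against each other.

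**Figure D2:**
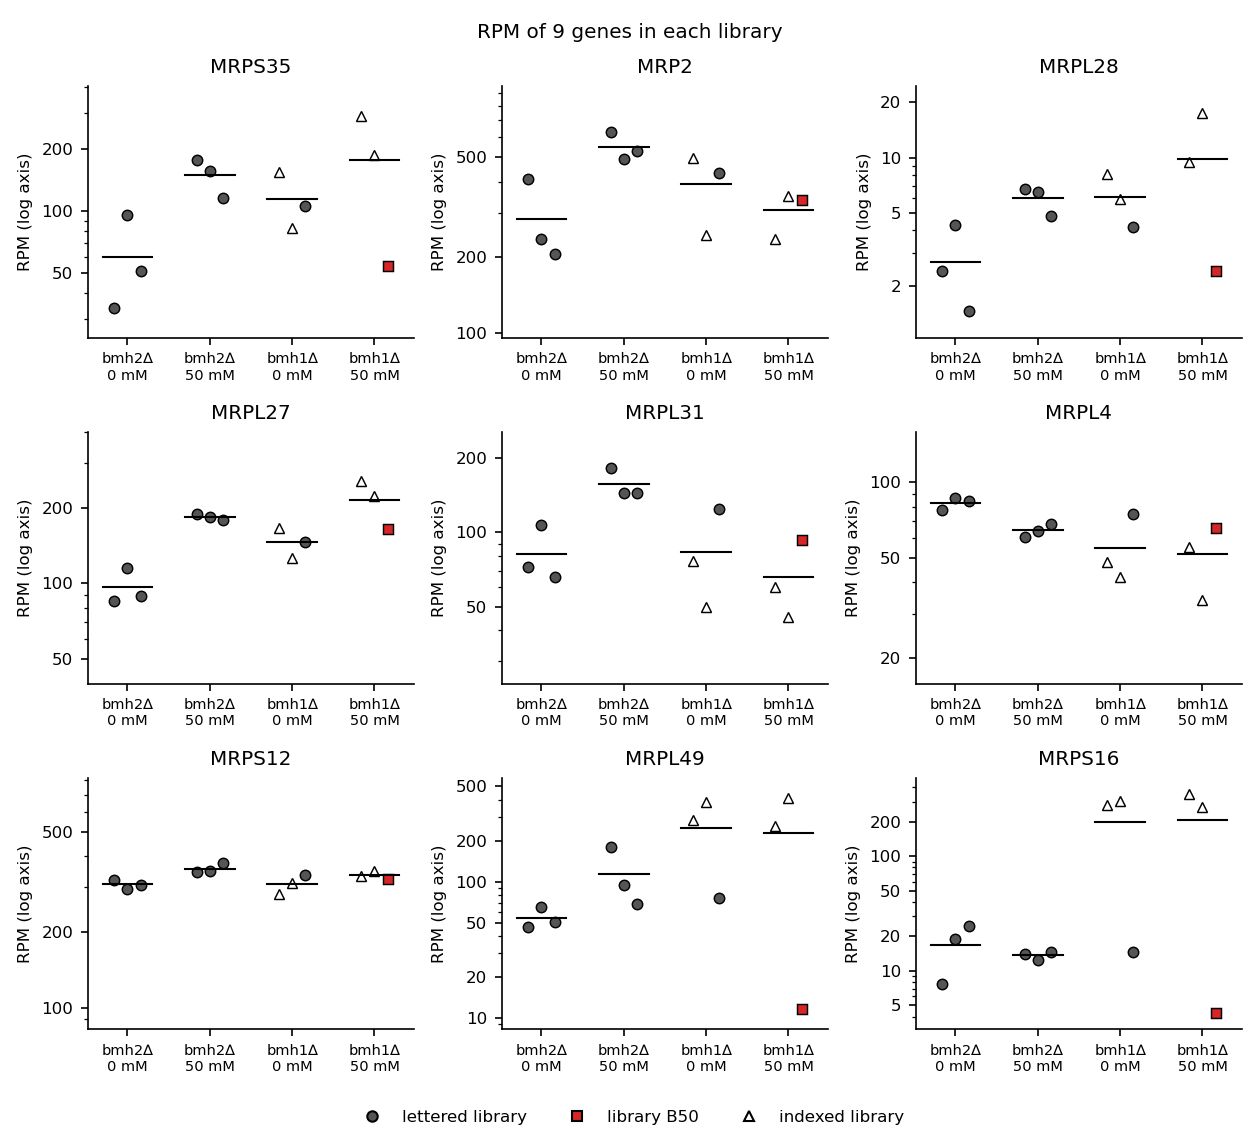
RPM (y axes, log scale) of 9 genes in each library, by strain and KCl concentration, with lines at the group means. In bmh2∆ the libraries at 0 mM KCl lie below those at 50 mM KCl for MRPS35, MRP2, MRPL28, MRPL27 and MRPL31 and above them for MRPL4. MRPS12 stays within 283 to 376 RPM, and MRPS16 and MRPL49 separate indexed (triangles) from lettered libraries.

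In bmh1∆ none of the 61 genes passed, where 51 of all genes tested rose (0.966%) and 0 fell. At an unadjusted p under 0.05, 2 of the 61 genes were higher and 0 lower (9.11% and 2.6% of all genes tested). The median log2 difference was 0.26 against 0.14 over all genes tested, with 46 of 61 values above 0. No gene had libraries that were separated by KCl, against 9.44% higher and 3.16% lower of all genes tested. RSM22, and MRPL16 chosen after its values were seen, are given in full. RSM22 had 60.1, 75.1 and 31.1 RPM in GTCACG and TGCACT and in B0 at 0 mM KCl, against 30.3, 39.9 and 9.46 RPM in GGATAT and CTATAG and in B50 at 50 mM KCl (log2 difference 1.16, standard error 0.49, adjusted p = 0.37). Within each naming series the 0 mM libraries were higher, but the series overlapped. RSM22 rose with the naming series as a term of the fit (adjusted p = 0.015), in which 7.54% of all genes rose and 1.17% fell. The culture letter as a block splits the bmh1∆ libraries as the naming series does, so it is no separate result. In that fit RSM22 rose (limma, adjusted p = 0.033), beside 5.59% of all genes that rose and 0.303% that fell. In a fit of the bmh1∆ libraries alone none of the 61 genes passed (0.0386% of all genes rose). MRPL16, a uL16 protein, had 85.4, 56.1 and 47.6 RPM in GTCACG and TGCACT and in B0, against 33.8, 53.2 and 7.53 RPM in GGATAT and CTATAG and in B50 (log2 difference 1.30, adjusted p = 0.41). Both RSM22 and MRPL16 were lowest in B50.

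The upward shift in bmh1∆ moved with 1 library. B50 was the lowest of the 6 libraries at 50 mM KCl for 41 of 61 genes (67.2%), against 39.2% of all genes tested. Without B50 the median over the 61 genes was -0.07. By the headers B50 came from a lane that no other library shared, and B0 from the lane of D0 and E0. Between B0 and B50, KCl and lane therefore cannot be told apart. With lane as a term of the fit the median over the 61 genes was 0.12. Without B0 and GTCACG, where the 0 mM group is TGCACT, this median was 0.56.

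**Figure D3:**
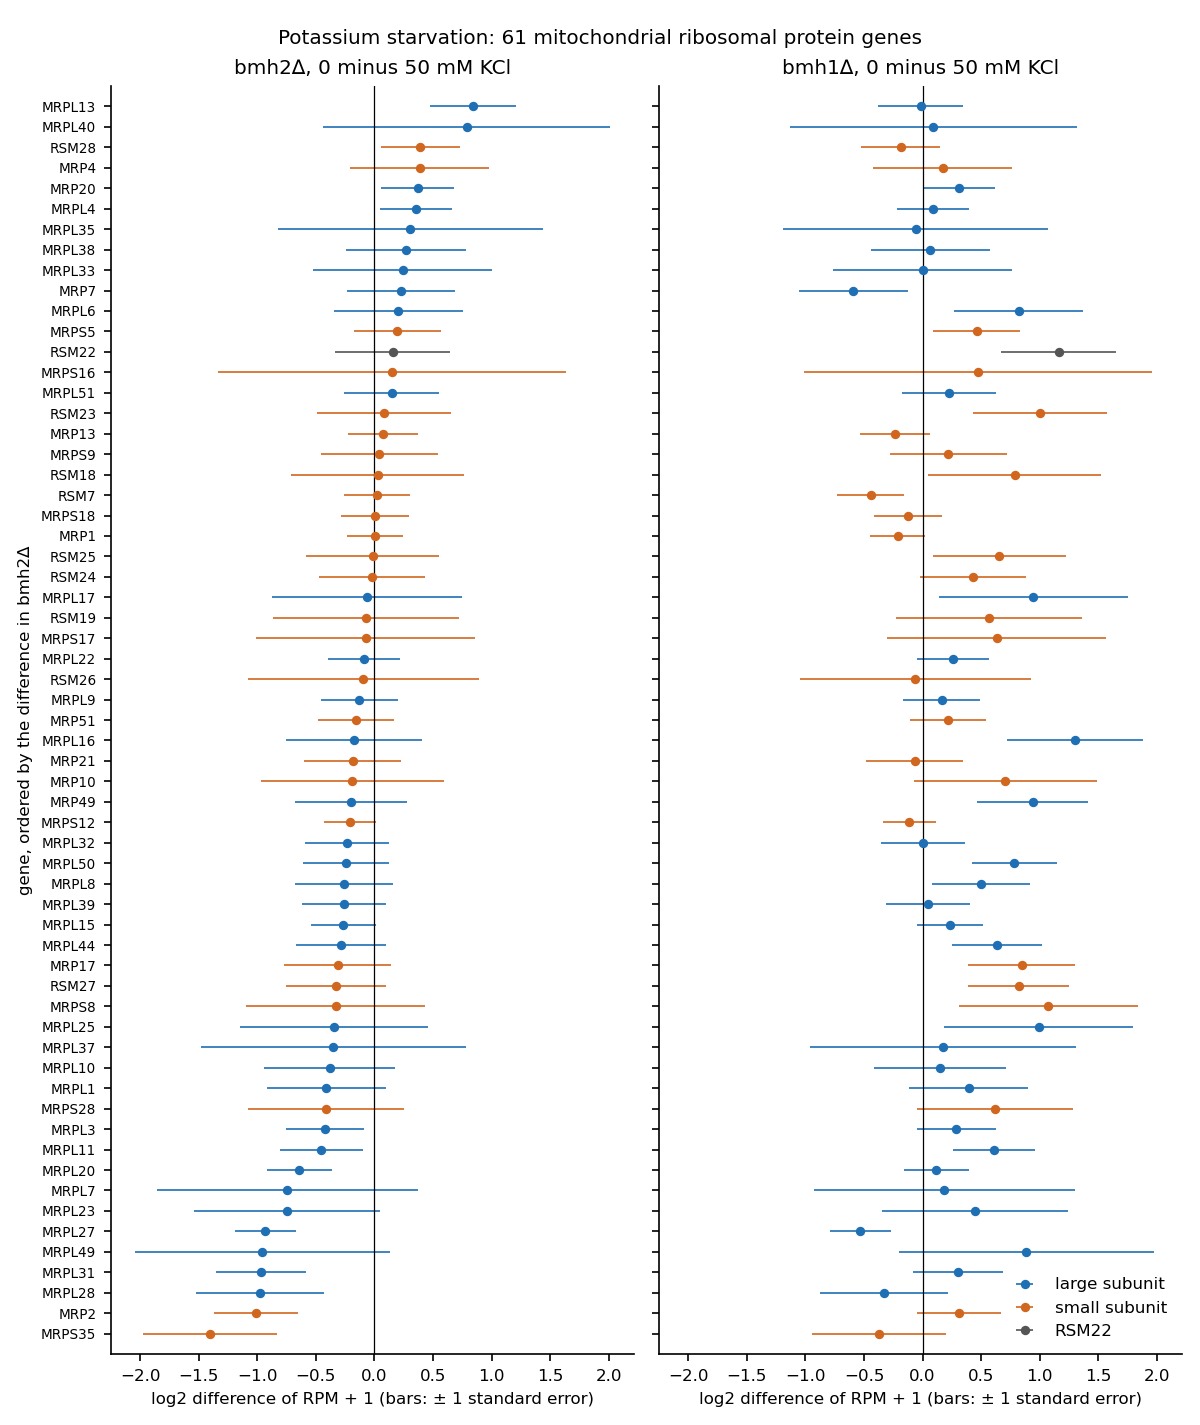
Log2 difference of RPM + 1 between 0 and 50 mM KCl for the 61 genes in bmh2∆ (left) and bmh1∆ (right), ordered by the value in bmh2∆, with bars of 1 standard error. No gene passed in either strain. Values in bmh2∆ run between -1.41 for MRPS35 and 0.84 for MRPL13.

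The response to starvation was also compared between the strains, as the interaction (the difference in bmh2∆ minus that in bmh1∆). None of the 61 genes passed, nor did any of all genes tested (0% higher, 0% lower). At an unadjusted p under 0.05, 2 of the 61 genes were lower and 0 higher, against 2.6% and 0.606% of all genes tested. These were MRP2 (-1.32, standard error 0.51) and MRPL31 (-1.27, standard error 0.54), both with an adjusted p of 0.99. The median over the 61 genes was -0.53 and 47 were below 0, whereas over all genes tested it was -0.12 with 57.6% below 0. Without B50 the median was -0.03, and without B0 and GTCACG it was -0.71. Among the lettered libraries alone each bmh1∆ group is 1 library (B0 or B50), the spread comes from the bmh2∆ libraries and bmh1∆ is assumed to vary like them, and B0 may hold reads of the others, so the calls there say nothing of the spread in bmh1∆. In that fit MRPL49 (-3.57), MRPL16 (-2.68), MRPL23 (-2.43), MRPL25 (-2.39) and RSM27 (-2.17) passed as lower (adjusted p = 0.036 to 0.0496), 8.20% of the 61 genes beside 3.26% of all genes tested. All 5 belong to the 15 genes in which CATG shares bases with the Puf3 element, and all were at their lowest of the 12 libraries in B50, for example 11.5 RPM for MRPL49 beside 46.7 to 414 RPM in the other libraries.

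The strains were then compared at each KCl concentration. At 0 mM KCl none of the 61 genes passed (0% of all genes tested were higher and 0.0189% lower). At an unadjusted p under 0.05, 0 were higher and 2 lower (MRPL3 and MRPL27), against 3.81% and 7.69% of all genes tested. The median was -0.47 against -0.15 over all genes tested, with 46 of 61 values below 0. The libraries were separated in 2 genes that were higher and 5 that were lower in bmh2∆, against 6.57% and 11.8% of all genes tested. MRPL3, an mL44 protein, had 18.2, 15.8 and 17.9 RPM in bmh2∆ (C0, D0 and E0), against 39.4, 52.3 and 21.6 RPM in bmh1∆ (GTCACG and TGCACT and in B0), with a log2 value of -0.999 (standard error 0.33, adjusted p = 0.40). MRPL49, a bL21 protein, had 50.3, 65.2 and 46.7 RPM in bmh2∆, against 285, 382 and 75.9 RPM in bmh1∆ (log2 difference -1.90, standard error 1.09). MRPL23, a uL13 protein, had 48.2, 63.4 and 45.2 RPM in bmh2∆, against 182, 206 and 67.3 RPM in bmh1∆ (log2 difference -1.38). In all 3 genes B0 lay next to the bmh2∆ libraries. B0 may hold reads of those libraries, so its place cannot be read as that of bmh1∆ alone. Without B0 and GTCACG the median over the 61 genes was -0.69. With the naming series as a term the signs of MRPL49 (0.37) and MRPL23 (0.25) turned, and the median of the 61 genes was 0.17. That term is shared by both KCl concentrations, so it includes B50, with 11.5 RPM of MRPL49 and 20.2 RPM of MRPL23. B0 itself lay above every bmh2∆ library at 0 mM KCl in both genes. In the lettered libraries alone, where B0 is the only bmh1∆ library at 0 mM KCl, the median was -0.06. The higher genes, MRP4 (log2 difference 1.27) and MRPL4 (0.63), had lower levels in the indexed libraries than in B0, with 37.3, 26.3 and 97.5 RPM of MRP4 in GTCACG and TGCACT and in B0.

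At 50 mM KCl none of the 61 genes passed either (0.0189% of all genes tested were higher and 0.0379% lower), with 6 higher and 3 lower at an unadjusted p under 0.05 (8.72% and 7.84% of all genes tested). In a fit of the groups at 50 mM KCl alone none passed as well (0.0396% of all genes were lower). The median was -0.01, the same as over all genes tested. The libraries were separated in 5 genes that were higher (MRPL44, MRPL11, MRPL31, MRPL50 and MRP2) and in MRPL13, which was lower, against 10.7% and 9.28% of all genes tested. MRPL44, an mL53 protein, had 155, 184 and 228 RPM in bmh2∆ (C50, D50 and E50), against 58.4, 47.1 and 81.6 RPM in bmh1∆ (GGATAT and CTATAG and in B50), with a log2 value of 1.60 (standard error 0.38, adjusted p = 0.15). MRPL11, the uL10 protein at the base of the ribosomal stalk, had 50.9, 62.4 and 66.9 RPM in bmh2∆, against 17.3, 28.0 and 24.0 RPM in bmh1∆ (log2 difference 1.36, standard error 0.35, adjusted p = 0.17). In both genes B50 as well as the indexed libraries lay below every bmh2∆ library. MRPL31 had 145, 145 and 183 RPM in bmh2∆, against 59.8, 45.2 and 93.1 RPM in bmh1∆ (log2 difference 1.30, adjusted p = 0.19). MRPL13 had 42.2, 27.9 and 44.5 RPM in bmh2∆, against 68.6, 59.0 and 71.0 RPM in bmh1∆ (log2 difference -0.80, adjusted p = 0.30). Without B50, 7 of the 61 genes passed as higher and 9 as lower, among them MRPS16, MRPL40 and RSM26, while 11.3% and 14.1% of all genes passed, and strain and naming series then cannot be told apart. In the lettered libraries alone, where B50 is the only bmh1∆ library at 50 mM KCl and is assumed to vary like the others, the calls leaned the other way, with 20 of the 61 genes higher (32.8%) and 0 lower, beside 12.7% and 1.87% of all genes.

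How far the naming series moved single genes was measured within bmh1∆, as indexed minus lettered libraries with the group in the fit, a comparison added after the data were seen. Of the 61 genes 36 were higher (59.0%) and 8 lower (13.1%) in the indexed libraries, against 36.1% and 22.2% of all genes tested. Without B0 and GTCACG, where B50 is the only lettered bmh1∆ library, 34 were higher and 6 lower, against 35% and 20.3% of all genes tested. MRPS16, a bS16 protein, had 270 to 347 RPM in the 4 indexed libraries, against 14.7 and 4.33 RPM in B0 and B50 (log2 difference 5.03, standard error 0.42, limma, adjusted p = 2.3e-06). The 6 bmh2∆ libraries, which are all lettered, do not set this difference in the fit, but they enter the spread behind its standard error and p. B0 may also hold reads of them. Without B0 and GTCACG the log2 difference of MRPS16 was 5.85. The genes that follow were also chosen after their values were seen. MRPL40, a uL24 protein, had 55.9 to 85.6 RPM in the indexed libraries, against 4.73 and 1.92 RPM in B0 and B50 (log2 difference 4.004). RSM26, an mS42 protein, went the other way, with 5.88 to 19.6 RPM in the indexed libraries, against 76.8 and 129 RPM in B0 and B50 (log2 difference -3.21, adjusted p = 2.3e-05). MRPS17, a uS17 protein, had 15.6 to 66.1 RPM in the indexed libraries against 193 and 180.03 RPM in B0 and B50 (log2 difference -2.94). These genes thus differed more between libraries of 1 strain than any of the 61 differed on starvation. Within bmh1∆ the 4 indexed libraries lay above B0 and B50 in 32 genes and below them in 8 (34.4% and 23.6% of all genes tested). All bmh2∆ libraries are lettered, so a difference between the strains carries this difference wherever it rests on the indexed libraries.

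**Figure D4:**
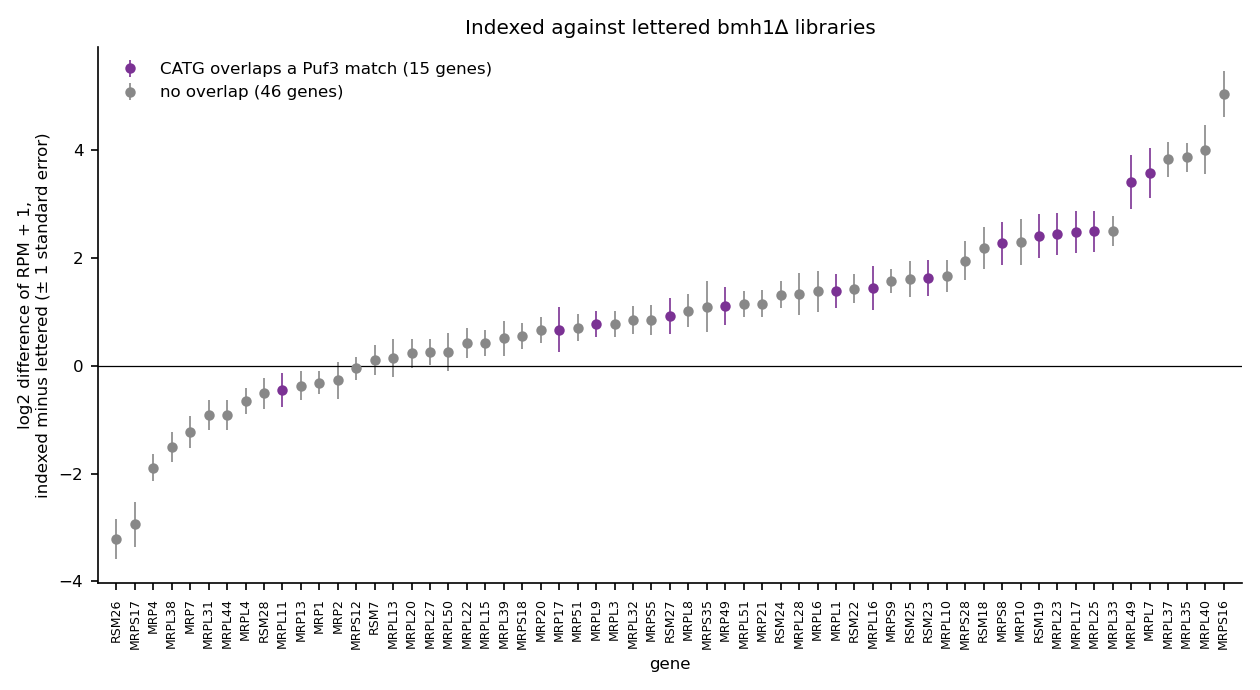
Log2 difference of RPM + 1 between indexed and lettered bmh1∆ libraries (y axis, bars of 1 standard error) for the 61 genes, ordered by size. It runs between -3.21 for RSM26 and 5.03 for MRPS16, and 14 of the 15 genes in which CATG shares bases with a Puf3 match lie above 0.

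The genes whose CATG shares bases with the Puf3 element had medians apart from those of the other 46 genes. In the indexed against the lettered libraries their median was 1.62 and 13 of 15 passed as higher and none as lower. The other 46 genes had a median of 0.68 with 23 higher and 8 lower. Of the 76 tested genes outside the 61 that share this overlap, 56 passed as higher and 2 as lower. Over all genes tested 36.1% passed as higher and 22.2% as lower. In bmh1∆ on starvation their median log2 difference was 0.85, with 15 of 15 above 0, beside 0.17 in the other 46 genes. In bmh2∆ on starvation it was -0.33, with 14 of 15 below 0, beside -0.05. In the interaction it was -1.14, with 15 of 15 below 0, beside -0.34. These 76 genes had medians of 1.46 between naming series, 0.60 in bmh1∆, -0.31 in bmh2∆ and -0.91 in the interaction. The 652 other genes with a Puf3 match away from CATG had medians of 0.24, 0.14, 0.05 and -0.10 in the same comparisons, close to those of the 4327 genes without a match (0.24, 0.13, 0.07 and -0.10). Without B0 and GTCACG the medians of the 15 genes were 2.35 between naming series, 1.18 in bmh1∆ and -1.48 in the interaction. Those of the other 46 genes were then 0.91, 0.33 and -0.57, and those of the 75 tested genes outside the 61 with this overlap 2.11, 1.01 and -1.31. B50 was the lowest of the libraries at 50 mM KCl for 14 of the 15 genes. Summed over the 15 genes it had 350 RPM, beside 1957 and 2738 RPM in GGATAT and CTATAG. The medians of these classes in bmh1∆ and in the interaction include B50 and were not computed without it. Over all 61 genes they were -0.07 and -0.03 without B50.

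Of the 17 bases after the CATG nearest the 3′ end, 0 to 7 were G or C in these 15 genes (median 3), with at most 3 in 10 of the 15, and for MRP49, MRPL9 and MRPL16 that CATG is not the one on the element. The medians are therefore also given by this composition. In all, 16 of the 61 genes had at most 3 bases that were G or C. Their median log2 difference was -0.32 in bmh2∆ and 0.83 in bmh1∆ on starvation, and 1.78 between naming series, while the 635 other genes of this composition had medians of -0.11, 0.43 and 0.94. The 14 genes with 8 or more had medians of -0.04, -0.01 and 0.46, and the 1334 other genes of this composition 0.13, -0.02 and -0.09. Without B0 and GTCACG the 16 genes had medians of 1.396 in bmh1∆ and 2.23 between naming series beside 0.71 and 1.14 in the 634 other genes, and the 14 genes 0.01 and 0.69 beside -0.17 and -0.04 in the 1331 other genes. In each class of composition the median of the 61 genes in bmh2∆ was below that of the other genes. The part that base composition, run and library preparation play in these values was not tested.

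**Figure D5:**
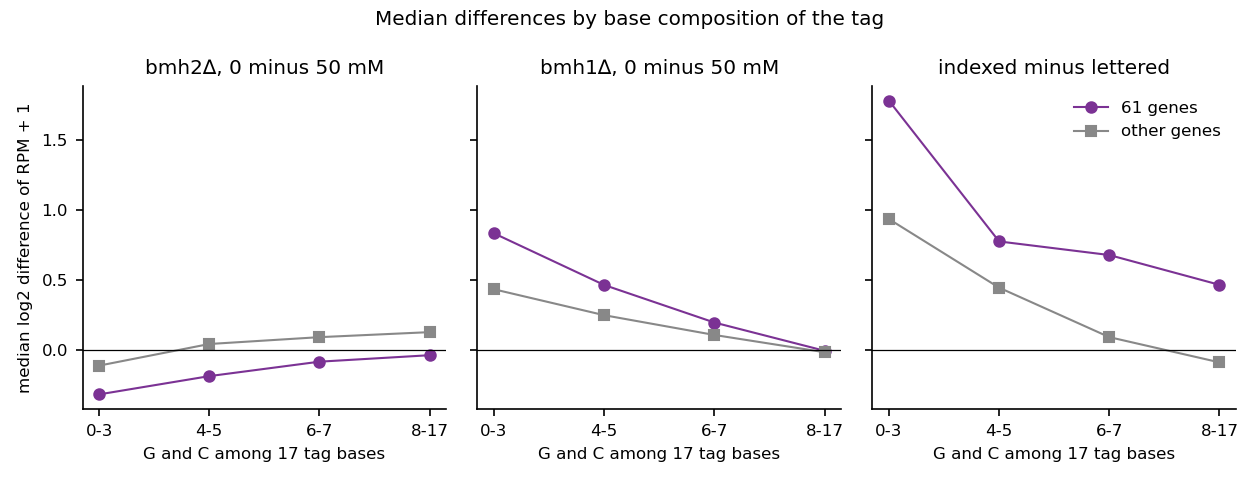
Median log2 difference of RPM + 1 (y axis) by the number of G and C among 17 tag bases (x axis) for the 61 genes (16, 11, 20 and 14 per class) and for the other genes tested, on starvation in bmh2∆ and bmh1∆ and between indexed and lettered libraries. In bmh1∆ and between naming series the medians fall toward tags richer in G and C, with 0.83 and -0.01 for the 61 genes at the ends in bmh1∆, and in bmh2∆ they run the other way.

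The other nuclear genes for mitochondrial translation did not pass either. In 6 lists with 66 tested genes none passed in any of the 5 comparisons. The 14 mitochondrial ribosomal proteins with other names, such as IMG1 and RML2, had a median log2 difference of -0.30 on starvation in bmh2∆ (10 of 14 below 0) and 0.19 in bmh1∆. The 13 mitochondrial tRNA synthetases, which charge the tRNAs used by this ribosome, had medians of -0.19 and 0.31, the 8 translation factors 0.03 and 0.43, and the 10 assembly factors -0.09 and 0.30. The 14 translational activators had medians of -0.03 and 0.22. Of the genes named here after their values were seen, PET111, the activator of COX2 translation, had the lowest p in bmh2∆ (log2 difference 1.25, standard error 0.41, adjusted p = 0.11). The 7 genes for transcription and membrane insertion had medians of 0.30 and 0.12, and OXA1, the insertase that binds the mitochondrial ribosome, had a log2 difference of -0.55 in bmh2∆ (adjusted p = 0.24).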

How the data were processed

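The deposited table holds SAGE-tag values of 6053 genes in 12 libraries, in RPM scaled by the authors. Per the file headers reads were trimmed before tags were counted per gene. Total RNA was bound to oligo-dT beads, cut with NlaIII at CATG and with MmeI 17 bases further, and amplified by 15 cycles of PCR. For the matching, software and annotation are not stated in the paper, the labels or the header. Columns were assigned to groups by strain and KCl, since their names carry no replicate number. Every value is a whole multiple, within 0.01, of 0.5 times the smallest value of its library, and depth is given as if this step were 1 read.

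The 5278 genes that reached 3 RPM in 3 or more libraries entered limma 3.58.1 in R 4.3.3 on log2(RPM + 1), with a mean per group, trend and robust options, two-sided, and Benjamini-Hochberg adjustment over all of them. Fold changes of low genes are understated on this scale. The genes, lists and tests were chosen with earlier results of these data known. Named genes are those that passed, in each comparison the 3 highest and 3 lowest differences among genes whose libraries do not overlap, the 5 highest and 5 lowest levels and RSM22, and those said to be chosen later. Alternatives were other pseudocounts, filters, scalings, variance settings, groups, lane or culture letter as a term and each library left out. After seeing the data the naming series, the lettered libraries alone and fits without B0 and GTCACG were added. The fit was tested on simulated data. Sequences were read from RefSeq R64, to which 5543 genes matched by name, with Python 3.11.15, pandas 2.3.3 and NumPy 2.4.6, and plotted with matplotlib 3.10.9.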

Additional observations from a re-analysis of the deposited data

How the results depend on the processing

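The number of the 61 genes that passed on starvation in bmh2∆ was 0 under 18 alternatives. It was 1 with quantile normalization and with median-of-ratios scaling (MRPL27, lower), where 165 and 157 of the 5278 genes fell. It was 5 in a fit of only the groups compared, where 12.5% of all genes fell. With the naming series as a term it was 4, where 9.49% of all genes fell. When single libraries were left out it was 0 to 2, with 2 without B50, where 6.11% of all genes fell. The lettered libraries alone also gave calls. In bmh1∆ it was 0 except with the replicate block, with the naming series as a term and in the lettered libraries alone. With the block and with the naming series it was 1 (RSM22, higher), beside 295 and 398 of the 5278 genes that rose. In the interaction it was 0 except in the lettered libraries alone. Between the strains at 50 mM KCl it was 0 except for 20 in the lettered libraries alone (all higher) and 16 without B50 (7 higher, 9 lower), a range of 0 to 16 when single libraries were left out. At 0 mM KCl it stayed at 0 under all 24 alternatives run. In the lettered libraries alone each bmh1∆ group is 1 library, assumed to vary like bmh2∆. The causes were not tested.

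The replicate block by culture letter gave 3 genes in bmh2∆ (MRPL13 higher, MRPL27 and MRPL31 lower), that is 1.64% and 3.28% of the 61 beside 9.76% and 8.17% of all genes. Deviations of libraries with the same letter correlated at 0.07 for C, 0.25 for D, -0.29 for E and 0.88 for B. The letters were not taken as pairs, since C and E do not exceed 0.1, and in bmh1∆ the block by letter is also the naming series. The block could not be fitted for the differences between strains, whose letters do not overlap.

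In the main fit the median over the 61 genes between the strains was -0.47 at 0 mM KCl and -0.01 at 50 mM KCl. With the naming series as a term it was 0.17 at 0 mM KCl and 0.61 at 50 mM KCl. In the lettered libraries alone it was -0.06 at 0 mM KCl and 0.75 at 50 mM KCl. The log2 difference at 0 mM KCl reversed to 0.37 for MRPL49 and 0.25 for MRPL23 with the naming series as a term. That term is shared by both KCl concentrations and so includes B50, and B0 itself lay above every bmh2∆ library at 0 mM KCl in both genes. With lane as a term the median over the 61 genes was -0.09 in bmh2∆, 0.12 in bmh1∆ and -0.21 in the interaction. Between the strains it was then -0.09 at 0 mM KCl and 0.08 at 50 mM KCl. With this term the value in bmh2∆ is that of C0 against the 50 mM libraries. The strains are linked only through the lane of B0, D0 and E0, and B0 may hold reads of the bmh2∆ libraries. When single libraries were left out, the median in bmh2∆ ranged between -0.25 (without D0) and -0.06 (without E0), that in bmh1∆ between -0.07 (without B50) and 0.55 (without B0), that of the interaction between -0.83 (without CTATAG) and -0.03 (without B50), and that between the strains at 50 mM KCl between -0.46 (without B50) and 0.23 (without CTATAG). Where 1 library was left in a group, it was assumed to vary like the others. Without the 5 genes of highest level the mean sum was 3603 RPM in bmh2∆ at 0 mM KCl and 4128 RPM at 50 mM KCl, and 5250.2 RPM in bmh1∆ at 0 mM KCl. Of 365 values of the 15 named differences 352 kept their direction and side of the threshold. The alternative of a count model (edgeR) was not run, because the table holds RPM.

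Each group has 3 libraries, and their spread was unequal. Among libraries kept with 50 mM KCl, the 61 genes had a median log2 SD of 0.21 for bmh2∆ and 0.99 for bmh1∆. The main fit pools the spread of all groups, so a gene has the same standard error for starvation in both strains (0.24 for MRP1). The wider spread of bmh1∆ thus also entered the tests in bmh2∆. With bmh2∆ fitted alone 5 of the 61 genes (8.20%) passed as lower, beside 12.5% of all genes tested. With bmh1∆ fitted alone none of the 61 passed, where 0.0386% of all genes tested rose and 0 fell. Values from PCR without molecular identifiers are not independent molecules.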
